A study of Rattus norvegicus with 4 samples.

Results

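Purinergic receptors sense ATP, ADP, UTP and adenosine outside cells. Here 8 receptor genes with known roles in sensory neurons and glia were followed across the spots of a spatial transcriptomics slide of the rat trigeminal nerve: P2rx3, P2rx4, P2rx5, P2rx6, P2rx7, P2ry1, P2ry2 and P2ry12. They were taken by gene symbol, and all 8 were found among the 32623 genes of the count matrix. Their UMIs (unique molecular identifiers, 1 for each captured transcript) were read in the ganglion, in the central myelin of the root and in macrophage-rich spots, with the remaining regions alongside.

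The animals were adult male Sprague–Dawley rats, wild type, in which the trigeminal root of 1 side had been compressed mechanically to model trigeminal neuralgia (TN). Behaviour was tested 5 days after surgery. Root, semilunar ganglion and proximal branches of the compressed side filled 3 capture areas, named TN1, TN2 and TN3, each from 1 rat. By the design text of the series, the uncompressed side of 2 of these 3 rats shared the area named HC (healthy control). On that description TN and HC tissue came partly from the same animals. The barcode suffix names the capture area only, and the 2 HC nerves were not separated by spot position here. The study's methods instead describe 5 rats split into 2 cohorts, with sham-operated controls, although the HC area is labelled as the healthy side. Whether TN and HC share animals is therefore not certain. Since HC is 1 area, any contrast of condition is at the same time a contrast of areas, and these cannot be separated. The areas held 1587, 1256, 1917 and 2013 spots (TN1, TN2, TN3, HC) with 23546025 to 41335930 UMIs per area and a median of 9487 to 30808 UMIs per spot. A spot covers several cells, so levels belong to a piece of tissue and not to a cell, and in sums of this kind fewer cells of a type and less RNA per cell cannot be told apart.

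The 6773 spots fell into 10 clusters, made without the purinergic genes. The clusters whose leading cell type score was that of sensory neurons formed the ganglion region (1394 spots, 199, 366, 164 and 665 in TN1, TN2, TN3 and HC). In this region 9 sensory neuron markers, all detected in every area, summed to 6734 to 7785 CPM (counts scaled to a common UMI total), against 682 to 1483 CPM in central myelin. The central myelin region (1065 spots, 278, 126, 227 and 434) carried the 8 oligodendrocyte markers at 2685 to 3127 CPM, against 74.0 to 207 CPM in the ganglion region. The 670 macrophage-rich spots were defined separately, as the 10% of spots with the highest share of UMIs on 11 macrophage genes, and numbered 50, 135, 449 and 36. They lay in different tissue: 91.7% of those in HC and 60.0% of those in TN1 were central myelin, whereas in TN2 the astrocyte region held 39.3% of them and in TN3 an unnamed region, found almost wholly in TN2 and TN3, held 37.4%.

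P2X receptors are cation channels that ATP opens, built of 3 subunits. P2X3, alone or together with P2X2, is the classical ATP receptor of small sensory neurons and of their endings. P2X4 and P2X7 are best known from macrophages, microglia and other glia, where P2X7 needs high ATP and P2X4 is held largely in lysosomes. P2X5 and P2X6 form channels poorly on their own and are found in neurons among other cells. P2Y receptors couple to G proteins: P2Y1 and P2Y12 respond to ADP, P2Y2 to ATP and UTP, and P2Y12 marks microglia in the central nervous system and platelets in blood.

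Most of the receptor RNA was P2rx3. Over all areas its 26088 UMIs made up 78.6% of the UMIs of the 8 genes. P2rx4 followed with 2832 UMIs, P2rx6 with 2263, P2rx5 with 1169 and P2ry2 with 488, while P2ry12, P2rx7 and P2ry1 had 146, 129 and 72 UMIs in the whole slide. Captured UMIs are read from transcript ends and were not scaled by length, and how well each transcript is captured can differ. For these last 3 genes most sums below rest on fewer than 10 UMIs. In RefSeq the genes P2rx3 and Ssrp1, P2rx6 and Lrrc74b, and P2ry2 and Fchsd2 overlap on opposite strands, and P2rx4 overlaps Camkk2 and P2ry12 overlaps Med12l, so where the counting did not use strand (which the sources used here do not give) their reads could be mixed.

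Promoters are shown for 3 members with different layouts on the slide: P2rx3 of the ganglion, P2rx4 of the connective tissue, unnamed and astrocyte regions and P2ry2 of peripheral myelin. They are printed 5′ to 3′ as the 250 bases before the start site in RefSeq, build GRCr8, strand minus in each case. Letters in capitals mark matches to GGGCGG (the GC box) or CCAAT on either strand, in the strand of the gene. The first belongs to the downstream one of 2 listed P2rx3 starts, chr3:90529310-90529559. The second is P2rx4, chr12:39523090-39523339, and the third P2ry2, chr1:164779489-164779738.
P2rx3: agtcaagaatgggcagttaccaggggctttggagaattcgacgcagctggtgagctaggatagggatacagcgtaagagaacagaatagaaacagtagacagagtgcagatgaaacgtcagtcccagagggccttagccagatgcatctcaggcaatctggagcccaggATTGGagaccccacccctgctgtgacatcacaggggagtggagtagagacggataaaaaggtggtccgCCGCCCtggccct
P2rx4: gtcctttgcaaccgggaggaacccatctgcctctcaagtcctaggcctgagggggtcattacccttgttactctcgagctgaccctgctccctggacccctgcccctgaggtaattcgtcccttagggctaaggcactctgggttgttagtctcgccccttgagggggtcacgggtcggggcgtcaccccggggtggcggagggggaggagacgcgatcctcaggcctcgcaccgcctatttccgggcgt
P2ry2: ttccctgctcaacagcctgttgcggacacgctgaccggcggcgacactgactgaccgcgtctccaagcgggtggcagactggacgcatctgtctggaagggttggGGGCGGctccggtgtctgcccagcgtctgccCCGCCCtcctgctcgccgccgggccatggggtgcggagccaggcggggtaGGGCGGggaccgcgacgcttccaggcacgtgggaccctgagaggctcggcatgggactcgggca

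The P2ry2 promoter held 25 CpG dinucleotides and 71.2% G and C, with more CpG than 90.3% of 33469 RefSeq promoters of this length, and matched GGGCGG 3 times. The P2rx3 stretch had 7 CpG, 54.4% G and C, 1 match to CCAAT and 1 to GGGCGG, while the other P2rx3 start had 16 CpG and no match. The P2rx4 promoter had 15 CpG and no match to these motifs. CCAAT occurred in 34.0% and GGGCGG in 30.5% of all promoters, so a match is common. TATAAA (12.9% of promoters), TGACGTCA (1.59%) and TGANTCA (6.34%) were also searched on both strands and were in none of the 7 promoters found for 6 of the members. P2rx5 and P2ry12 had no entry.

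P2rx3 RNA followed the sensory neurons. In the ganglion region its level was 419, 311, 242 and 321 CPM in TN1, TN2, TN3 and HC, a mean of 323 ± 72.9 CPM (SD, n = 4 areas), and this region held 72.2% of all P2rx3 UMIs but 42.7% of all UMIs. Next came the unnamed cluster that mixes sensory neuron and Schwann cell genes, at 209 ± 37.0 CPM (SD, n = 4), and its highest area, 255 CPM in TN1, lay above the lowest ganglion value. All other regions averaged between 33.8 CPM in the astrocyte region (n = 2) and 91.4 CPM in the blood and bone region (n = 4), and neighbours in that order overlapped. In central myelin P2rx3 stood at 102, 35.8, 25.8 and 58.6 CPM in TN1, TN2, TN3 and HC.

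Nearly every ganglion spot held P2rx3. At full depth 97.6% to 100% of ganglion spots had a UMI, at a median of 36143 to 49116 UMIs per spot. When each spot was thinned to 2000 UMIs, TN1 kept a share of 55.3% (exact binomial 95% interval 48.1% to 62.3%), TN2 of 43.4% (38.3% to 48.7%), TN3 of 38.4% (30.9% to 46.3%) and HC of 47.1% (43.2% to 50.9%). These intervals cover counting error only. The same thinning left 3.40% to 18.1% of central myelin spots with a UMI. In the astrocyte region it left 4.05% of spots in TN2 and 7.55% in TN3, where the median depth was 11325.5 and 14452 UMIs before thinning. The astrocyte region also held 876 and 1658 UMIs of the sensory neuron markers in TN2 and TN3, so its shares are no floor for tissue without such RNA.

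The ratio of P2rx3 to other sensory neuron RNA varied much less than its level. Within an area the P2rx3 level differed 5.47-fold (HC) to 9.37-fold (TN3) between the highest and lowest region. P2rx3 UMIs per 1000 UMIs of the 9 sensory neuron markers differed 1.19-fold in HC and 1.64-fold to 1.69-fold in the TN areas. Over all 26 sums of a region in an area with at least 20 spots, the ratio ran from 28.4 to 68.9 with a median of 41.6. The regions share libraries and sections, so this is a description across tissue pieces and not a test.

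**Figure D1:**
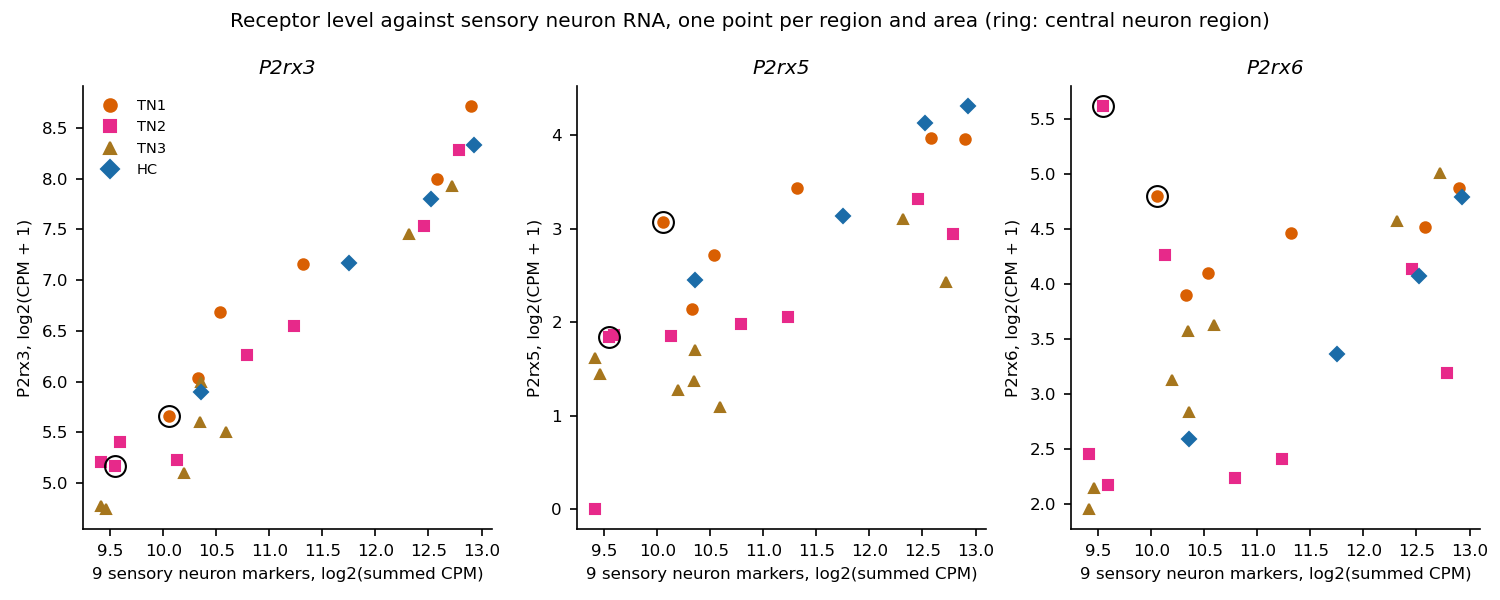
Level of P2rx3, P2rx5 and P2rx6 as log2(CPM + 1) against the summed level of 9 sensory neuron markers as log2(CPM), 1 point for each of the 26 sums of a region in an area (TN1 circle, TN2 square, TN3 triangle, HC diamond), with a ring around the central neuron region. P2rx3 climbs with the markers throughout, whereas the 2 ringed points of P2rx6, at 26.8 CPM in TN1 and 48.1 CPM in TN2, stand above the other points with as little sensory neuron RNA.

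P2rx5 had its highest means in the ganglion region and the mixed unnamed cluster, like P2rx3, but at a lower level. The ganglion region held 65.4% of its UMIs and 42.7% of all UMIs. P2rx5 stood there at 14.6, 6.69, 4.38 and 18.9 CPM in TN1, TN2, TN3 and HC. The mixed unnamed cluster had 14.6, 8.95, 7.58 and 16.5 CPM. These regions did not differ beyond their spread, with means of 11.1 ± 6.76 and 11.9 ± 4.33 CPM (SD, n = 4), and every other region averaged 5.35 CPM or less. Single areas overlapped: blood and bone had 9.86 CPM in TN1 and 7.79 in HC, and the central neuron region 7.41 in TN1. Per 1000 sensory neuron marker UMIs, P2rx5 had 6.96 (TN1) and 3.45 (TN2) UMIs in the central neuron region and 0.650 to 2.43 in the ganglion region. Over the 26 sums P2rx5 and P2rx3 had a Pearson r of 0.847 on the log2(CPM + 5) scale. In both regions the order of the areas was the same, with HC highest, then TN1, TN2 and TN3.

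P2rx6 was present in ganglion and central neuron tissue. Its mean level was highest in the central neuron region, at 26.8 CPM in TN1 and 48.1 CPM in TN2, the areas that had this region. The ganglion region followed with 28.4, 8.16, 31.2 and 26.8 CPM in TN1, TN2, TN3 and HC (23.6 ± 10.5, SD, n = 4), and the mixed cluster with 19.3 ± 3.56 CPM (SD, n = 4). The ganglion range overlapped that of each of the others, while the mixed cluster, at 15.8 to 22.8 CPM, lay below both central neuron values. TN2 was the area out of line, with the lowest ganglion value and the highest central neuron value. The lowest mean was 3.20 CPM in the astrocyte region. Per 1000 sensory neuron marker UMIs, P2rx6 had 25.2 and 64.3 UMIs in the central neuron region and 1.15 to 4.64 in the ganglion region.

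P2ry1, a receptor for ADP, was close to the limit of detection everywhere. Its highest mean was 1.11 CPM, in peripheral myelin (9 UMIs in TN1 and TN3 together), and the astrocyte region had none. In the ganglion region it had 7, 5, 1 and 12 UMIs in TN1, TN2, TN3 and HC.

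**Figure D2:**
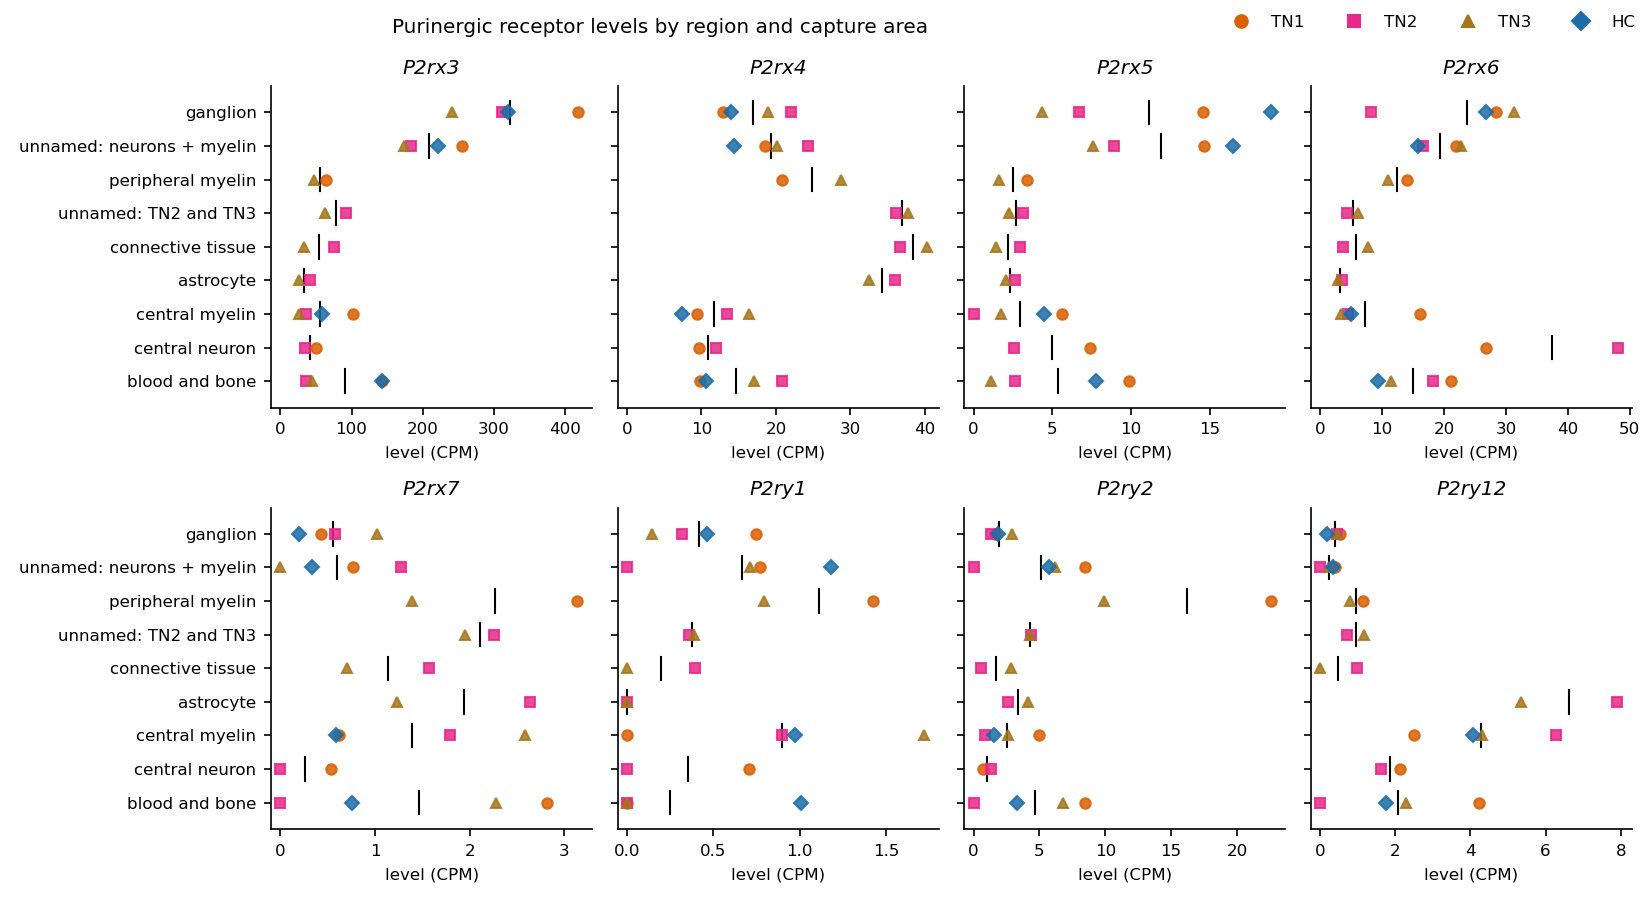
Level in CPM (horizontal axis) of the 8 receptors in each region (vertical axis) with at least 20 spots in an area, 1 symbol for each capture area and a vertical bar for the mean over areas. P2rx3 and P2rx5 lie highest in the ganglion and the mixed neuron and myelin cluster, P2rx4 in connective tissue, the unnamed TN2 and TN3 region and the astrocyte region, P2ry2 in peripheral myelin and P2ry12 in the astrocyte and central myelin regions.

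P2rx4 had another layout than P2rx3. It was highest in connective tissue (36.6 CPM in TN2 and 40.2 in TN3), in the unnamed region of TN2 and TN3 (36.1 and 37.7) and in the astrocyte region (36.0 and 32.5). Connective tissue and the unnamed region overlapped, and the astrocyte values lay just below them. In TN2 and TN3, 53 of 74 and 137 of 159 astrocyte region spots were also macrophage-rich. Connective tissue had 18 of 109 and 35 of 51 such spots, and the unnamed region 25 of 347 and 168 of 472. The part of these spots in the P2rx4 levels was not tested. Peripheral myelin had 20.8 CPM in TN1 and 28.8 in TN3, and the ganglion region 12.9, 22.0, 19.0 and 14.01 CPM in TN1, TN2, TN3 and HC. Central myelin (11.6 ± 4.03 CPM, SD, n = 4) and central neuron (10.8 ± 1.58 CPM, SD, n = 2) regions were lowest and overlapped. The upper 3 regions were present only in TN2 and TN3 at 20 spots or more, so their level and those areas cannot be told apart.

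P2rx7, the other P2X channel of macrophages and glia, averaged 2.26 CPM in peripheral myelin, 2.10 in the unnamed region of TN2 and TN3 and 1.94 in the astrocyte region, and 0.553 ± 0.350 CPM (SD, n = 4) in the ganglion region. Neighbours in the order of means overlapped, and each sum held at most 25 UMIs.

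P2ry2, a receptor for ATP and UTP, was highest in peripheral myelin. It reached 22.5 CPM in TN1 (79 UMIs) and 9.93 CPM in TN3 (50 UMIs) there, against 5.09 ± 3.60 CPM (SD, n = 4) in the mixed cluster and 1.93 ± 0.693 CPM (SD, n = 4) in the ganglion region. Peripheral myelin held 27.7% of its UMIs and 6.72% of all UMIs. The highest value of the mixed cluster, 8.48 CPM in TN1, was below both peripheral myelin values.

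P2ry12, the ADP receptor of microglia, was highest in central tissue. It stood at 7.90 CPM in TN2 and 5.35 in TN3 in the astrocyte region and at 2.49, 6.27, 4.30 and 4.08 CPM in the central myelin of TN1, TN2, TN3 and HC, overlapping values. The ganglion region had 0.192 to 0.532 CPM, below every central myelin value. Of its 146 UMIs, central myelin held 37 and the astrocyte region 22. In the astrocyte region 53 of 74 spots in TN2 and 137 of 159 in TN3 were macrophage-rich, and their part was not tested.

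The genes whose pattern over the 26 sums was most like that of a member were named by a fixed rule, the 3 highest Pearson correlations among 8491 genes. For P2rx3 these were Prph, the intermediate filament peripherin of small sensory neurons (r = 0.977), Ubash3b (0.973) and Susd2 (0.972). P2rx4 was closest to Arpc1b, a subunit of the actin-branching Arp2/3 complex (0.955), to the receptor tyrosine kinase gene Axl (0.954) and to Ninj1 (0.952). P2rx5 lay nearest to Hpcal1 (0.929), Amigo1 (0.923) and Khk (0.914), and P2rx6 to Mab21l2, Chga, which encodes chromogranin A of secretory vesicles, and Slitrk1 (0.893, 0.893 and 0.892). The scarce members gave P2ry12 with Hibadh (0.895), Ggh and Agap1, P2ry2 with Cyb5r2 (0.858), Sbspon and Ncoa4 and P2rx7 with Oser1 (0.855), Dusp18 and Ttc14. The sums share libraries, depth and regions, and for P2rx7 and P2ry12 they rest on few UMIs.

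The first comparison asked whether the receptors of the ganglion differed between the compressed and the healthy side. No member passed. The sums per area were fitted with edgeR's quasi-likelihood test, which called 0 of 12819 genes at a Benjamini-Hochberg adjusted p under 0.05 (0% called). At an unadjusted p under 0.05 it counted 1188 genes (9.27%), and DESeq2 called 118. HC has 1 area, so the spread came from the 3 TN areas. P2rx3, in CPM on the TMM-scaled libraries, was 417, 303 and 241 in TN1, TN2 and TN3 and 332 in HC, with HC inside the TN range. Its log2 fold change, TN over HC, was −0.05 (SE 0.31, edgeR adjusted p = 0.967), and it lay between −0.29 and 0.14 in 14 alternative fits.

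P2rx5 was the 1 of 6 tested members with all 3 TN areas below HC, a pattern that 29.6% of all tested genes showed. It had 14.5, 6.53 and 4.37 CPM in TN1, TN2 and TN3 and 19.6 CPM in HC, from 137, 105, 30 and 492 UMIs. Its log2 fold change was −1.20 (SE 0.57, edgeR adjusted p = 0.556). In the fit without TN1 it was −1.81 (adjusted p = 0.000182), where 9.62% of 12915 genes passed, and in the neuron-rich cluster alone −0.72 (adjusted p = 0.688). Markers of large sensory neurons (5 genes) were lower in the TN areas too: they summed to 3982, 2711 and 3739 CPM in TN1, TN2 and TN3 and 6078 CPM in HC, and their part in the P2rx5 values was not tested.

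P2rx7 was the member with all 3 TN areas above HC, as were 27.4% of the genes. Its counts were 4, 9 and 7 UMIs in the TN areas and 5 in HC (0.424, 0.560 and 1.02 against 0.199 CPM; log2 fold change 1.65, SE 0.99, edgeR adjusted p = 0.603). The macrophage list was also higher in each TN ganglion, at 359, 832 and 571 CPM against 195 CPM in HC with all 11 genes detected in every area, and the part of those cells in the P2rx7 values was not tested.

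The other 3 tested members had HC within the TN range. P2rx4 was at 12.8, 21.5 and 18.9 CPM in TN1, TN2 and TN3 and 14.5 in HC (log2 fold change 0.29, SE 0.34, edgeR adjusted p = 0.792), with a range of 0.05 to 0.48 over 14 alternatives. P2rx6 was at 28.3, 7.96 and 31.2 CPM against 27.7 (−0.32, SE 0.66, adjusted p = 0.893), and TN2 alone was low. P2ry2 was at 1.59, 1.31 and 2.91 CPM against 1.95 (−0.05, SE 0.60, adjusted p = 0.984). P2ry1 and P2ry12 had too few UMIs to enter the fit, with 5, 7, 3 and 5 UMIs for P2ry12.

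**Figure D3:**
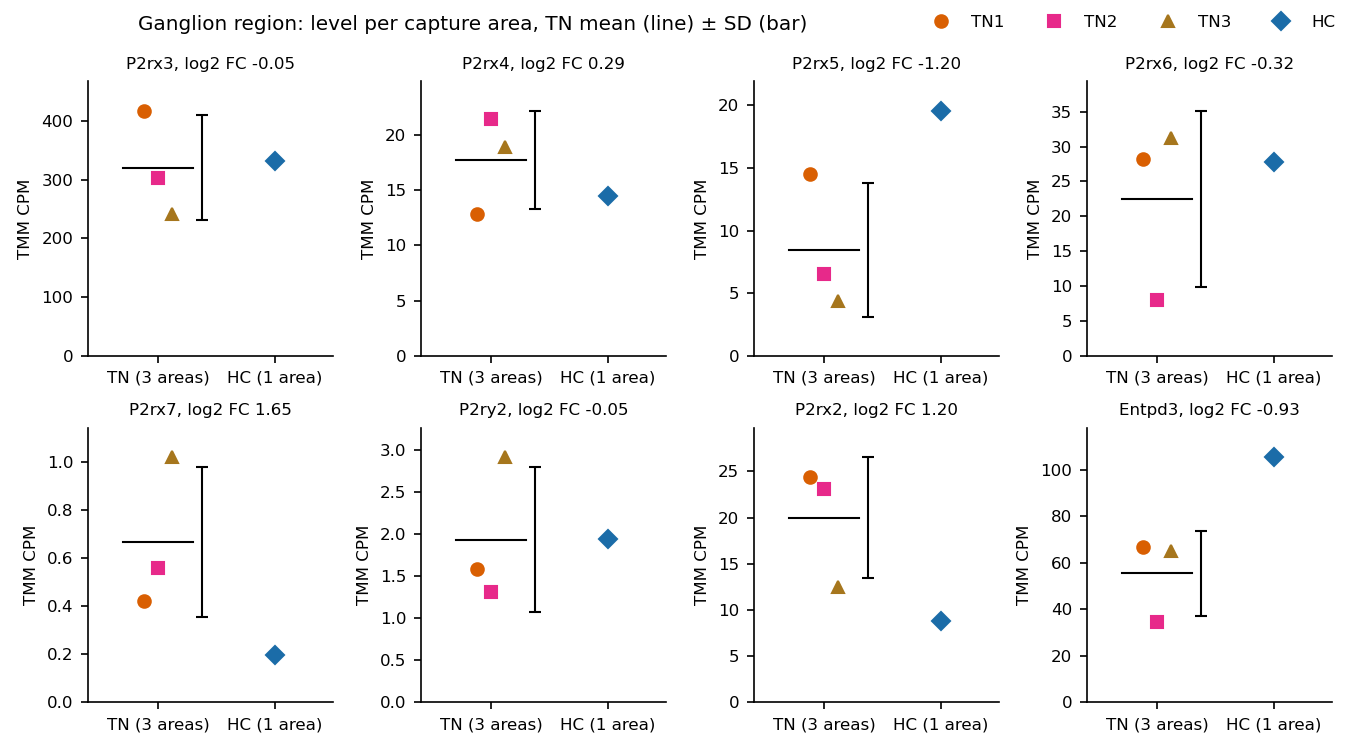
TMM-scaled CPM in the ganglion region for the 6 tested members, P2rx2 and Entpd3, 1 symbol for each capture area, with the mean (line) and SD (bar) of the 3 TN areas beside the single HC area and the log2 fold change of TN over HC above each panel. HC lies above all 3 TN areas for P2rx5 (19.6 CPM) and Entpd3 (105 CPM) and below them for P2rx7 and P2rx2, and none passed the adjusted threshold.

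Around these receptors, 36 further genes of the purinergic system were examined: other receptors, ATP release channels, enzymes of nucleotide breakdown and nucleoside transporters. Of these, 26 were tested in the ganglion and none passed. All 3 TN areas were above HC for 9 and below HC for 10, beside 27.4% and 29.6% of all tested genes. An unadjusted edgeR p under 0.05 was found for 3, beside 9.27% of all tested genes. P2rx2, whose subunit joins P2X3 in heteromeric channels, was at 24.4, 23.1 and 12.5 CPM in TN1, TN2 and TN3 and 8.78 CPM in HC (log2 fold change 1.20, SE 0.43, edgeR adjusted p = 0.536). P2ry6, a UDP receptor, was at 4.34, 9.33 and 3.64 CPM against 2.46 (log2 fold change 1.25), and Entpd1, the ectonucleotidase CD39, at 9.21, 24.7 and 17.8 CPM against 8.54 (1.02).

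The 3 lowest fold changes were those of 2 ectoenzymes and an adenosine receptor. Enpp2, which encodes autotaxin, was at 3.28, 1.87 and 1.02 CPM against 5.64 in HC (log2 fold change −1.44, edgeR adjusted p = 0.536). Entpd3, the ectonucleotidase of sensory neurons, was at 66.9, 34.4 and 65.1 CPM against 105 (−0.93, edgeR adjusted p = 0.536). Adora1, the A1 adenosine receptor, was at 12.8, 9.14 and 7.42 CPM against 17.4 (−0.82). The median log2 fold change of the 26 genes was 0.28 and that of all genes 0.03.

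The ganglion region consisted of a neuron-rich cluster led by Nefl, Necab1 and Tac1 (145, 40, 94 and 665 spots in TN1, TN2, TN3 and HC) and a second cluster led by Csrp3, Gal and Reg3b that HC did not have (54, 326 and 70 spots in TN1, TN2 and TN3). The second cluster had 3 nerve injury genes and no sensory neuron marker among its 10 leading genes, so the TN areas pooled tissue that HC lacked, and nerve injury genes summed to 1526, 2862 and 1617 CPM in the TN ganglia against 579 CPM in HC. P2rx3 itself had no common direction between the clusters, at 422 and 410 CPM in TN1, 369 and 300 in TN2 and 221 and 278 in TN3. Per 1000 sensory neuron marker UMIs it had 55.0 and 53.7 UMIs in TN1, 35.7 and 46.3 in TN2 and 32.2 and 42.5 in TN3.

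Relative to P2rx3 the other P2X subunits stood differently in these clusters. P2rx2 went from 4.96 to 8.25 UMIs per 100 P2rx3 UMIs from the neuron-rich to the second cluster in TN1, from 4.85 to 8.24 in TN2 and from 3.26 to 7.78 in TN3, and HC had 2.65 in its neuron-rich cluster. P2rx5 went the other way, from 3.95 to 2.18, from 3.61 to 1.83 and from 2.32 to 1.13, and HC had 5.89. P2rx6 also had fewer UMIs per 100 in the second cluster, at 4.17 against 7.74, 2.30 against 4.06 and 5.94 against 18.1. HC had 8.36, inside the range of the TN neuron-rich clusters. P2rx4 had no common direction, with 3.22 against 3.02, 7.77 against 3.95 and 7.50 against 8.11. Its HC value of 4.37 also lay inside the range of the TN neuron-rich clusters. Each direction is given for 3 areas as a description, with no test, since the spots were grouped by their own expression, and the second-cluster value of P2rx5 in TN3 rests on 8 UMIs.

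**Figure D4:**
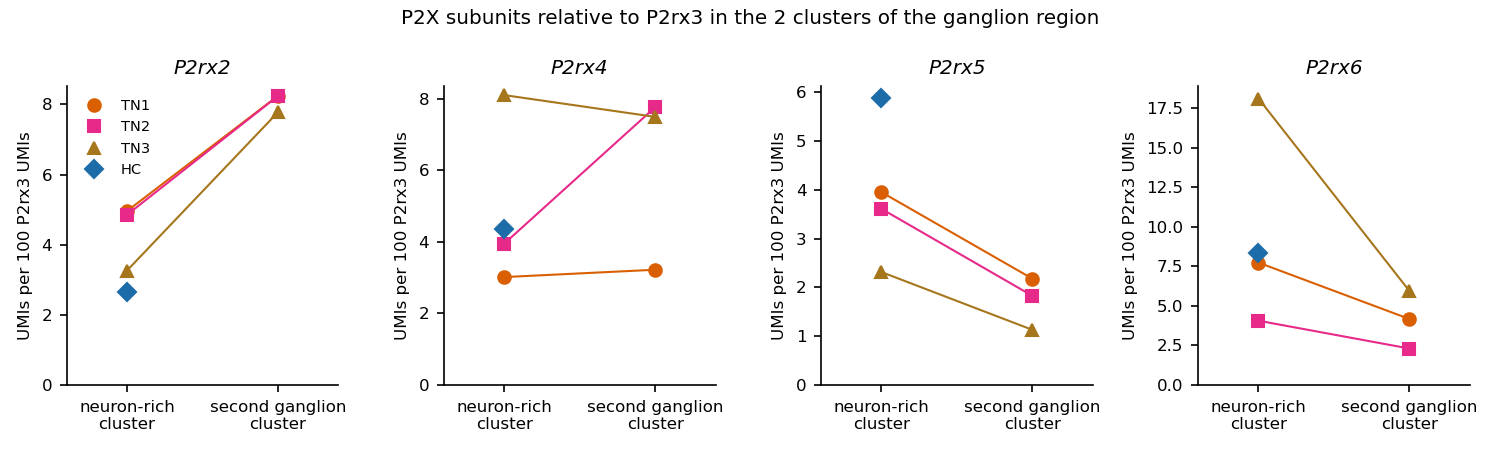
UMIs of P2rx2, P2rx4, P2rx5 and P2rx6 per 100 P2rx3 UMIs (vertical axis) in the neuron-rich and the second cluster of the ganglion region, with a line joining the clusters of each TN area and a diamond for HC, which has only the first. The 3 lines climb for P2rx2 and descend for P2rx5 and P2rx6, while those of P2rx4 differ in direction.

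In central myelin the question was the same for the tissue of the root. No gene passed (0 of 9040 by edgeR, 0% called, with 280 genes or 3.1% at an unadjusted p under 0.05 and 4 called by DESeq2), and the counts allowed 3 members to be tested. P2rx4 had all 3 TN areas above HC, at 9.16, 13.3 and 16.8 CPM against 7.69, from 15, 15, 19 and 38 UMIs (log2 fold change 0.74, SE 0.49, edgeR adjusted p = 0.9999). Of all tested genes, 20.3% were higher and 21% lower in all 3 TN areas. The macrophage list was 1262, 1819 and 1868 CPM in these areas and 1128 in HC, the same order as P2rx4, and its part in the P2rx4 values was not tested.

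P2rx3 in central myelin was at 100, 35.4 and 26.5 CPM in TN1, TN2 and TN3 and 61.1 in HC (−0.14, SE 0.62, edgeR adjusted p = 0.9999), and the sensory neuron list ran in the same order, with 1483, 682, 705 and 1306 CPM, save that TN2 and TN3 exchanged places. P2rx6 was at 15.9, 4.42 and 3.53 CPM against 5.26 (0.67, SE 0.86). The untested members had 1 to 23 UMIs or none in each area, with P2ry12 at 4, 7, 5 and 21 UMIs and P2rx5 at 9, 0, 2 and 23.

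Among 21 other purinergic genes tested in central myelin none passed. In all 3 TN areas 2 were higher and 4 lower, beside 20.3% and 21% of all tested genes. The higher ones were Calhm2 (log2 fold change 1.24, SE 1.08) and Entpd1, at 21.4, 28.3 and 31.8 CPM against 16.0 (0.75, SE 0.34). The lower ones included Adora2b (−0.27), Adk, the adenosine kinase (−0.25), and Adora2a (−0.22).

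Among the members the smallest p of any comparison was that of P2rx4 in macrophage-rich spots. It had 19.97, 31.7 and 34.5 CPM in TN1, TN2 and TN3 and 10.9 CPM in HC, where 4 UMIs were counted in 36 spots (95% Poisson interval 1.09 to 10.2 UMIs, or 2.75 to 25.8 CPM before TMM scaling). All TN values were above HC, as they were for 34.7% of the tested genes, and 28.3% were lower in all 3. The log2 fold change was 1.51 (SE 0.59, edgeR adjusted p = 0.413). The fit called 0 of 10092 genes (0% called), while 1184 (11.7%) had an unadjusted p under 0.05 and DESeq2 called 96. Alternatives gave 1.33 to 2.25 and adjusted p-values of 0.0865 to 0.9998.

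The macrophage list, which chose these spots, was at 3348, 3271 and 3881 CPM in TN1, TN2 and TN3 and 3302 CPM in HC, with all 11 genes detected in each area. P2rx4 UMIs per 1000 UMIs of this list were 5.87, 10.2 and 9.17 in the TN areas and 3.06 in HC. In the ganglion region the same ratio ran the other way, at 35.9, 26.4 and 33.2 in TN1, TN2 and TN3 against 71.8 in HC. In the central myelin region it was 7.40, 7.38 and 8.75 against 6.54. Other lists differed in the macrophage-rich spots. Peripheral myelin genes summed to 16997, 12570 and 15749 CPM in the TN spots and 2220 CPM in HC, where Egr2 and Ncmap were at 0. Microglia genes summed to 317, 262 and 286 CPM against 487 CPM. The part of this tissue in the P2rx4 values was not tested beyond the spots of central myelin. Within central myelin alone, where most HC spots lay, macrophage-rich spots had 26.2, 23.2 and 18.7 CPM of P2rx4 in TN1, TN2 and TN3 and 11.1 CPM in HC, from 4, 5, 6 and 4 UMIs. Spots of central myelin outside the set had 7.57, 11.1, 15.4 and 7.10 CPM, so each area was higher in its macrophage-rich spots, as a description at these low counts. Over all regions the macrophage-rich spots were higher than the others in the TN areas and lower in HC, where they had 10.1 against 12.9 CPM.

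**Figure D5:**
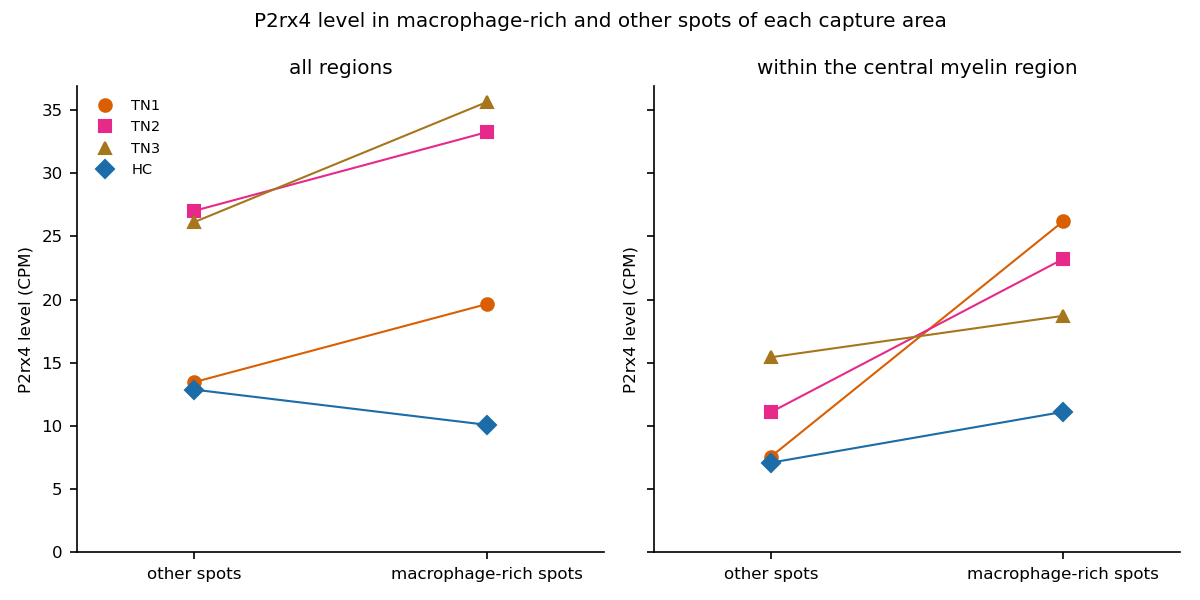
P2rx4 level in CPM in the macrophage-rich and the other spots of each capture area, over all regions (left) and within the central myelin region (right), with a line joining the spot sets of an area. Over all regions HC is the area that descends, from 12.9 to 10.1 CPM, and within central myelin all 4 areas climb on 4 to 6 UMIs in the macrophage-rich spots.

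The other members were sparse in macrophage-rich spots. P2rx3 was at 46.6, 65.0 and 29.1 CPM in TN1, TN2 and TN3 and 84.8 CPM in HC (log2 fold change −0.87, SE 0.54, edgeR adjusted p = 0.538), all TN areas below HC, but the value turned to 0.17 when the set was widened to the highest 20% of spots. P2rx6 had all 3 TN areas above HC, at 9.99, 5.07 and 5.85 CPM against 2.74, on 3, 16, 47 and 1 UMIs (1.09, SE 1.28). P2rx7 was at 6.66, 2.85 and 1.74 CPM against 2.74, on 2, 9, 14 and 1 UMIs (−0.15, SE 1.81). P2ry12 was counted 0, 13, 23 and 2 times and was not tested: at 0, 4.32, 2.96 and 5.05 CPM all 3 TN areas lay below HC, whose 95% Poisson interval ran from 0.611 to 18.2 CPM, while the upper limit for the 0 of TN1 was 12.1 CPM. P2ry2 had 1, 11, 26 and 0 UMIs (3.27, 3.66, 3.34 and 0 CPM before TMM scaling) and P2rx5 0, 4, 10 and 1 (0, 1.33, 1.29 and 2.52 CPM). The spot sets held 305589, 3009203, 7778894 and 396385 UMIs in TN1, TN2, TN3 and HC, so their raw counts are not on 1 scale.

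Of 25 other purinergic genes tested in these spots none passed. In all 3 TN areas 8 were higher and 7 lower, beside 34.7% and 28.3% of all tested genes. Nt5e, the ectonucleotidase CD73, had 1, 29 and 49 UMIs in the TN areas and none in HC, where 3 UMIs would be the limit that a count of 0 allows. Entpd2, which degrades ATP to ADP at glial surfaces, was at 19.97, 194 and 172 CPM against 19.2 (log2 fold change 2.85, SE 1.28), and its TN1 value was close to HC. Enpp3 was at 6.66, 9.83 and 14.6 CPM against 2.74 (2.10, SE 1.13). At the depth of these spots 2.74 CPM in HC is 1 UMI, and 6.66 and 19.97 CPM in TN1 are 2 and 6 UMIs. On the lower side were Adora1 at 19.97, 8.56 and 5.23 CPM against 32.8 (−2.10, SE 0.77, edgeR adjusted p = 0.387), the nucleoside transporter Slc29a4 (−1.74) and Acpp, the prostatic acid phosphatase that turns AMP into adenosine on sensory neurons, at 13.3, 10.1 and 7.97 CPM against 30.1 (−1.69, SE 0.54, adjusted p = 0.366).

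Whether the contrast of TN and HC differed between ganglion and central myelin was tested directly, with the capture area as a block. It passed for 3 of 12767 genes (0.0235%), the galanin gene Gal, Stac2 and LOC100912228, named here after their values were seen, and for no member, while 674 genes had an unadjusted p under 0.05 and DESeq2 called 3. The smallest member p was that of P2rx6, 0.102 (difference −1.01, SE 0.58, edgeR adjusted p = 0.920). For P2rx4 the difference was −0.49 (SE 0.40, adjusted p = 0.943). Over the 3 comparisons 13 of the 24 pairs of member and region could be tested, of which 4 had all TN areas above HC and 2 below, 1 had an unadjusted p under 0.05 and none an adjusted one. Among all tested genes of a comparison, 20.3% to 34.7% lay above HC in all TN areas and 21% to 29.6% below. An unadjusted edgeR p under 0.05 was found for 3.1% to 11.7%.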

How the data were processed

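The deposited values were UMI counts per gene and spot of 4 Visium capture areas, which the authors made with Space Ranger 1.2.0; STAR is also named per the labels, and neither genome build nor annotation is given in the sources used here. Whether depth was equalised when the areas were joined into 1 matrix is not stated. The areas share position barcodes (346 to 979 per pair), so spots were assigned by barcode suffix.

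The 8 members and the gene lists were chosen with earlier results of these data known. Spots were normalised with sctransform 0.4.2 in Seurat 5.3.0, and 3000 variable genes (purinergic genes left out), 30 principal components and K-means gave 10 clusters. A cluster took the name of its highest cell type list where that score led the other cell type lists by 0.25, and otherwise stayed unnamed. Nerve injury and other cell state lists named no cluster: the second ganglion cluster scored 0.98 on sensory neurons and 1.78 on nerve injury. Spots can mix cell types, and no doublet caller was run. Of 145 listed genes 143 were found (not Gfra1 and Pecam1), and Acp3 is listed as Acpp.

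Levels are CPM of UMIs summed per region and area, with regions under 20 spots in an area left out. Sums were compared with edgeR 4.0.16 in R 4.3.3 (TMM, filterByExpr, quasi-likelihood test, two-sided, Benjamini-Hochberg over all tested genes, threshold 0.05), with 3 TN areas and 1 HC area. The text names every member, the 3 highest and 3 lowest fold changes of the other purinergic genes with all TN areas on 1 side of HC, and the 3 genes most like each member among those with at least 1000 UMIs, which for P2ry1 are not reported here. Region levels, shares and ratios carry no test. The alternatives were DESeq2 1.42.0, DESeq2 size factors, no filter, other clusterings and spot sets, and leaving out each TN area. Joining the mixed cluster to the ganglion was added after seeing the data. The scripts were tested on simulated data. Precision is limited by depth: a sum of 4 UMIs has a 95% Poisson interval of 1.09 to 10.2. Images and the study's cell type deconvolution were not used here.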

Additional observations from a re-analysis of the deposited data

Results flagged for a closer look

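Among the other purinergic genes, 5 had all 3 TN areas on 1 side of HC in macrophage-rich spots and all 3 on the opposite side in the ganglion or central myelin. Of the 24 tested in both the ganglion and macrophage-rich spots 4 did so, beside 11.7% of all 10051 genes tested in both, and of the 21 tested in both central myelin and macrophage-rich spots 1 did so, beside 4.69% of all 8922 genes. These differences between sets of spots were not tested, the sets come from the same capture areas and share the single HC area, and no adjusted p-value passed in any of them. The macrophage-rich spots are not a separate tissue. In HC 91.7% of them were also central myelin spots, against 60.0% in TN1, 19.3% in TN2 and 13.4% in TN3. TN and HC thus differ in regional makeup there, and its part in these values was not tested. P2ry6, a UDP receptor, had a log2 fold change of 1.25 in the ganglion and −0.63 in macrophage-rich spots, a difference of 1.89. P2ry14, a UDP-glucose receptor, had 0.57 in the ganglion and −0.91 in macrophage-rich spots, a difference of 1.48. The nucleoside transporter Slc29a1 had 1.71 in macrophage-rich spots and −0.39 in the ganglion, a difference of 2.10. The adenosine deaminase gene Ada had 0.72 and −0.43 in the same sets of spots, a difference of 1.14. Adora2a, an adenosine receptor gene, had 1.78 in macrophage-rich spots and −0.22 in central myelin, a difference of 1.99. In macrophage-rich HC spots 1 UMI amounts to 2.74 CPM on the TMM-scaled libraries. There Adora2a stood at 2.74, Slc29a1 at 5.47, Ada at 8.21, P2ry14 at 13.7 and P2ry6 at 30.1 CPM. The side of HC in these spots thus rests on few UMIs. Between the ganglion and central myelin, where 4.90% of 9023 genes lay on opposite sides, the adenosine receptor gene Adora2b was the 1 of 21 that did so, with 0.51 and −0.27, and the test of that difference gave 0.77 (SE 0.50, edgeR adjusted p = 0.930), which did not pass. No member showed such a pattern.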

How the results depend on the processing

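The single HC area, few UMIs for P2rx7, P2ry1 and P2ry12, and 36 macrophage-rich HC spots set the limits. No paired analysis was made because HC is a single area in which the nerves of 2 rats were not separated. Of 49 alternative fits, 1 called a member: P2rx5 in the ganglion without TN1 (−1.81, members called 0 to 1 on leaving out an area). Over members and alternatives, 221 values kept direction and side of the threshold, 1 gained the call and 20 turned. Called genes moved more. In the ganglion (0 in the report) DESeq2 called 118 (97 higher, 21 lower), no filter 21, clusters on log-normalised counts 5, the neuron-rich cluster alone 6, and leaving out an area 0 to 1242 (1242 without TN1, 29 without TN2, 0 without TN3). In central myelin DESeq2 called 4 and no filter 1, and leaving out an area 0. In macrophage-rich spots DESeq2 called 96 (78 higher, 18 lower), no filter 184 (median log2 fold change of all genes then 0.65), and leaving out an area 0 to 919 (919 without TN1, 0 without TN2, 191 without TN3). The difference between ganglion and central myelin (3 in the report) had 89 without the filter, 7 on log-normalised clusters and 8 to 126 on leaving out an area (85 without TN1, 8 without TN2, 126 without TN3). The cause was not tested beyond fewer areas and more genes. The share of HC ganglion spots with P2rx3 was 47.1% thinned and 99.5% not thinned.

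The values that turned were these, with ranges over the fits that left out 1 TN area. In the ganglion P2ry2 was −0.41 to 0.20 on leaving out an area (0.01 without TN1, 0.20 without TN2), 0.18 on log-normalised clusters, 0.45 in the neuron-rich cluster and 0.046 with the mixed cluster joined. P2rx3 was −0.29 to 0.14 (0.0063 without TN2, 0.14 without TN3), 0.059 on log-normalised clusters and 0.025 in the neuron-rich cluster, and P2rx6 was −0.61 to 0.11 (0.11 without TN2) and 0.12 in the neuron-rich cluster. In central myelin P2rx3 was −0.97 to 0.17 (0.10 without TN2, 0.17 without TN3). In macrophage-rich spots P2rx7 was 0.14 with DESeq2 and 1.03 with the highest 20% of spots, and P2rx3 0.17 with the latter. For the difference between tissues P2rx5 was −0.71 to 0.48 (0.48 without TN1), P2ry1 was −1.33 to 0.45 (−1.33 without TN1), and with 8 clusters P2rx7 was −0.12 and P2ry1 −0.066. The cause was not tested.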
